A study of Rattus norvegicus with 90 samples.

Results

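The middle dose of human umbilical cord mesenchymal stromal cells (HuMSC), given through the nose, was compared with sham treatment in the microglia of rat pups that had been exposed to interleukin-1β (IL-1β) after birth. The libraries were chosen by their labels, as the 3 replicates of the group given 50 M cells per kg and the 3 replicates of the IL-1β group of the same age and route without cells, which makes 6 of the 90 libraries of the series. All genes of the count table were examined. All pups were male Wistar Han rats and were given repeated intraperitoneal injections over the first postnatal days. For the injured and all treated pups these held mouse IL-1β, a recombinant protein, to a dose of 20 µg per kg, and for the control pups PBS. At postnatal day 10 (P10) the treated pups received HuMSC in PBS through the nose, while injured and control pups received PBS as a sham, and brains were taken 48 h later, at P12. The group with 50 M cells per kg is called HuMSC50. The same run held a control group and groups given 20 or 125 M cells per kg after IL-1β (HuMSC20 and HuMSC125), 15 libraries in all. Another run at P12 held an injured group and a group with 50 M cells per kg whose cells or sham went into a vein, which gave 6 more libraries to compare with. Cerebellum and olfactory bulbs were removed, and the remaining brain was dissociated before CD11b/c-positive cells were collected on beads. That surface marker is shared by microglia and other myeloid cells, and the label therefore names an enriched fraction, not a pure cell type. Nothing in the labels says whether a replicate was 1 animal or a pool, so the p-values below measure the spread between these libraries.

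Microglia are the resident macrophages of the brain. IL-1β signals through its receptor to the transcription factor NF-κB, which switches on cytokine and chemokine genes together with their own inhibitors, and the AP-1 factors of the Fos and Jun families act on many of the same genes. Cytokines and chemokines released by microglia draw other immune cells and act on neighbouring glia. In the first weeks of rodent life a microglial state found along growing axon tracts expresses phagocytic, lysosomal and lipid-handling genes such as Gpnmb, Spp1, Igf1 and Lgals3, and the oligodendrocytes around them begin to make myelin. Mesenchymal stromal cells are studied for the immunoregulatory factors that they secrete.

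Total counts of the 6 libraries lay between 12.2 and 15.9 M, and 13868 genes of the 15-library run passed the filter on low counts. Log2 CPM (counts scaled to library size) of 2 libraries of the same group correlated across genes with r from 0.970 to 0.987. Of 26 homeostatic microglial marker genes 25 were tested, none rose or fell, and their median difference was 0.03. Their summed level was 36080, 41270 and 35480 CPM in injured and 35240, 41330 and 36810 CPM in HuMSC50 libraries. The purinergic receptor gene P2ry12, by which microglia sense injury, held 1589, 2248 and 1435 CPM in injured and 1417, 1831 and 1698 CPM in HuMSC50 libraries (log2 difference -0.09 ± 0.15). Mitochondrially encoded transcripts made up 3.26%, 3.14% and 4.52% of the counts in injured libraries and 2.87%, 7.63% and 6.81% in HuMSC50 libraries. Their 13 genes had a median difference of 0.70 with none called, and their part in the results below was not tested.

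With HuMSC50, 15 of 31 tested genes of inflammatory signalling were called lower than in injured libraries, and a smaller set that included 6 of 17 oligodendrocyte genes was higher. edgeR's quasi-likelihood F test called 169 of 13868 genes at a Benjamini-Hochberg adjusted p under 0.05, or 1.22% of the genes tested. Of these, 143 fell (1.03% of genes tested) and 26 rose (0.187%), with a median log2 change of -1.01 among the falls and 0.98 among the rises. More than 1 log2 unit separated the groups for 72 of the genes that fell and 13 of those that rose. In all 169 the 3 HuMSC50 libraries lay wholly above or wholly below the 3 injured ones, a separation found in 18.3% of all genes tested (8.78% above and 9.49% below). The median over all genes tested was 0.01. The count depended on single libraries. Leaving out replicate 1, 2 or 3 of HuMSC50 gave 99, 29 or 34 calls, and leaving out replicate 1 or 2 of the injured group gave 57 or 109. DESeq2 called 387. Of the 169, 23 were called in each of the 14 alternative settings. All 169 kept their sign in each of them. With groups that did not overlap, leaving out 1 library could hardly change a sign, so the kept signs add no support.

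**Figure D1:**
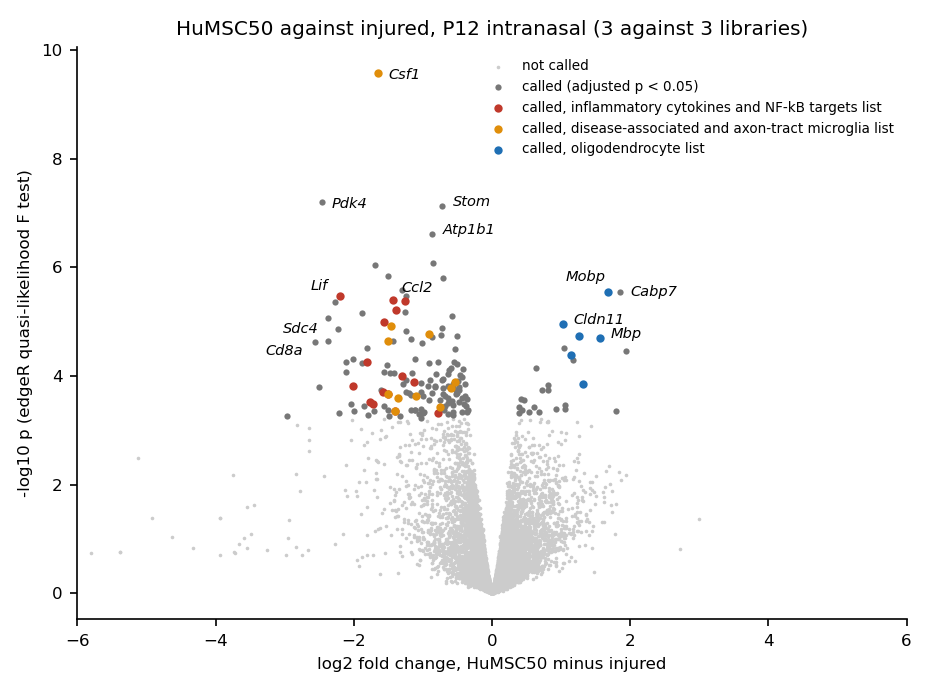
Each point is a gene, placed by its log2 fold change of HuMSC50 minus injured (x axis) and by -log10 of its unadjusted edgeR p (y axis), with called genes darker and 3 gene lists in colour. The 143 called genes on the left outnumber the 26 on the right, Csf1 stands highest, and 2 genes, neither of them called, lie outside the x axis.

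Among secreted cytokines, Csf1 had the smallest p of all genes. It encodes a growth factor that supports microglial survival. Csf1 stood at 85.7, 80.5 and 98.2 CPM in the injured libraries and at 29.5, 28.1 and 26.8 CPM in the HuMSC50 libraries. The highest HuMSC50 library lay far below the lowest injured one, and the spread within each group was narrow. The difference was -1.65 ± 0.12 (log2 fold change ± SE, n = 3 against 3, edgeR adjusted p = 3.63e-06), and the call held in every alternative setting. Control libraries held 38.0, 39.0 and 36.5 CPM.

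Lif, an interleukin-6 family cytokine that acts on glia, ran from 14.2, 11.1 and 7.92 CPM in injured to 1.92, 1.46 and 3.77 CPM in HuMSC50 libraries. It fell by 2.201 ± 0.31 (edgeR adjusted p = 0.00360), also in every alternative setting. The HuMSC50 libraries lay below the control libraries too, at 6.23, 5.31 and 4.48 CPM. Osm, of the same cytokine family, fell less, by 0.77 ± 0.18, from 91.9, 83.9 and 82.0 to 54.3, 50.8 and 45.6 CPM.

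Il1b, the rat gene of the cytokine that had been injected as mouse protein, held 304, 149 and 179.6 CPM in injured and 97.6, 52.0 and 63.1 CPM in HuMSC50 libraries. Injured replicate 1 was the highest of the 6, and the groups did not overlap. The fall was 1.57 ± 0.32 (edgeR adjusted p = 0.0273), a call lost when injured replicate 1 or replicate 2 or 3 of HuMSC50 was left out, with adjusted p up to 0.149. Il1rn, which encodes the natural antagonist of the IL-1 receptor, moved in the same direction, from 13.04, 10.1 and 10.5 to 3.12, 3.47 and 5.88 CPM, and fell by 1.43 ± 0.24 (adjusted p = 0.00861). Il1a, the other agonist of that receptor, was at -0.28 and was not called. Ptgs2, the inducible cyclooxygenase of prostaglandin synthesis, fell by 1.31 ± 0.25, from 22.3, 12.4 and 15.0 to 5.92, 5.24 and 8.85 CPM. The gene of the TNF family member Tnfsf18 fell by 1.61 ± 0.33, from 22.9, 24.5 and 23.3 to 12.3, 5.39 and 5.59 CPM. Il6 was not called.

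Among chemokine ligand genes the calls were falls only. The table held 34 genes whose symbols name a chemokine ligand, 20 of them were tested, and 8 fell while none rose, against 1.03% of all genes that fell. Monocyte-attracting Ccl2 stood at 146, 151 and 123 CPM in injured and 54.1, 47.9 and 53.3 CPM in HuMSC50 libraries, and fell by 1.43 ± 0.21 (edgeR adjusted p = 0.00368). HuMSC50 libraries were also below the control libraries, which held 90.7, 133 and 131 CPM. Its neighbour Ccl7, which acts on the same receptor, fell by 1.26 ± 0.18, from 175, 137 and 102 to 69.2, 47.3 and 55.9 CPM. Ccl2 and Ccl7 were called in every alternative setting. Both lie on chromosome 10, at 69412017 to 69413870 and 69423086 to 69424979 in the deposited table's coordinates, for which the sources used here name no genome build.

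Ccl3 and Ccl4, chemokine genes that are also markers of activated microglia, lie side by side further along that chromosome. Ccl3 ran from 1268, 697 and 609 CPM in injured to 417, 267 and 288 CPM in HuMSC50 libraries, a fall of 1.41 ± 0.32 (edgeR adjusted p = 0.0410). Ccl4 fell by 1.51 ± 0.31, from 612, 398 and 383 to 252, 96.6 and 142 CPM. Neutrophil-attracting Cxcl1 and Cxcl2 lie together on chromosome 14. Cxcl1 held 101, 36.0 and 33.6 CPM in injured and 15.8, 9.47 and 16.8 CPM in HuMSC50 libraries and fell by 2.01 ± 0.40 (adjusted p = 0.0245). Cxcl2 fell by 1.81 ± 0.33, from 302, 141 and 157 to 59.7, 48.4 and 63.4 CPM. For both, injured replicate 1 was far above the other injured libraries, and both calls were lost without it, as were those of Ccl3 and Ccl4. The interferon-inducible chemokine gene Cxcl10 fell by 1.57 ± 0.24 (adjusted p = 0.00626), and the eosinophil-attracting Ccl24 by 0.59 ± 0.13. Cxcl12, which is made mainly by vascular and mesenchymal cells, was at 0.54 and was not called.

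**Figure D2:**
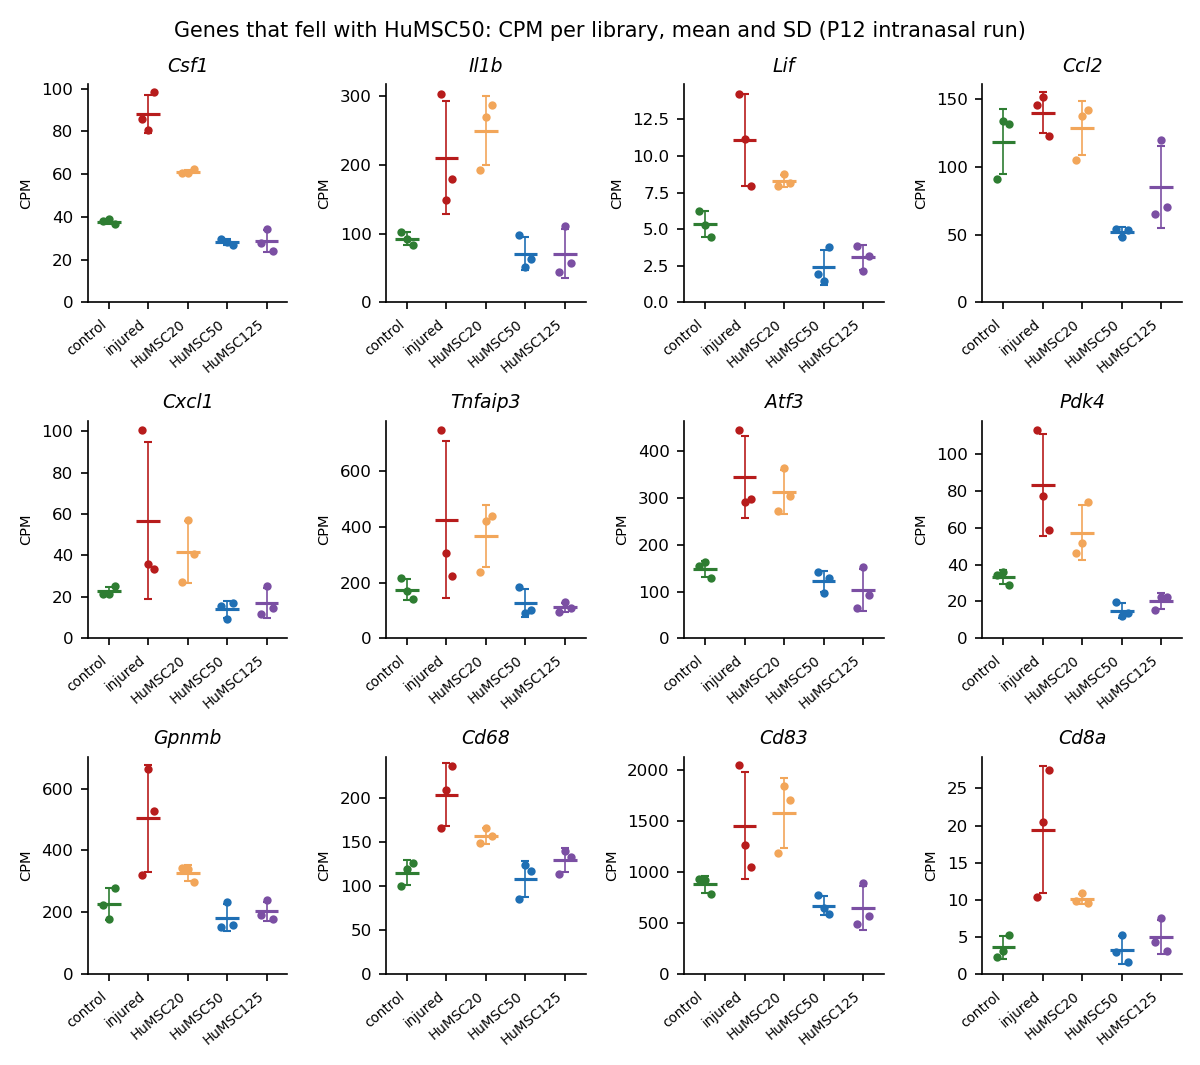
CPM of 12 genes that fell, with a point for each of the 15 libraries of the run and the mean ± SD of the 3 libraries of each group. HuMSC50 libraries lie below all injured libraries in each panel. Injured replicate 1 is the highest of its group for Il1b, Cxcl1 and Tnfaip3 and the lowest for Gpnmb, Cd68 and Cd8a.

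Genes that act inside the cell on NF-κB fell beside the ligands. Tnfaip3, whose product A20 removes ubiquitin and switches the pathway off, stood at 747, 305 and 224 CPM in injured and 183, 90.8 and 103 CPM in HuMSC50 libraries (fall of 1.76 ± 0.38, edgeR adjusted p = 0.0345). The nuclear IκB genes Nfkbiz and Nfkbid fell by 1.71 ± 0.37 and 1.85 ± 0.41. The subunit gene Rel fell by 0.78 ± 0.14, from 30.9, 29.3 and 28.1 to 19.3, 14.3 and 17.7 CPM, with injured libraries close together. The other subunit genes Nfkb1, Nfkb2 and Relb were not called, at 0.01, -0.19 and -0.19, and the classical inhibitor gene Nfkbia was at -1.25 with an adjusted p of 0.0881. Downstream, the adhesion molecule gene Icam1 fell by 1.13 ± 0.22 and Tnfaip2 by 1.38 ± 0.21. Of the 33 genes of the list of inflammatory cytokines and NF-κB targets, 31 were tested, 15 fell and none rose. The median of those tested was -1.13, and 1.03% of all tested genes fell. The summed level of the list was 6900, 4275 and 3858 CPM in injured and 2908, 2270 and 2330 CPM in HuMSC50 libraries. Leaving out replicate 1, 2 or 3 of HuMSC50 left 9, 4 or 6 members that fell, and leaving out injured replicate 1 left 5.

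The promoters of these genes were searched for the κB motif, spelled as GGG, any 2 bases and TTTCC, on both strands of the 250 bases before each gene's start in RefSeq's GRCr8 assembly. It was found in 7 of the 110 genes that fell and had a promoter in the table (6.36%), in none of the 17 that rose and had one, in 1.67% of the 10130 tested genes and in 1.37% of all 27457 promoters. A match describes these letters only and shows no binding. The windows of 5 of the genes described above are printed to show the motif, in capitals, with 10 bases on either side, read 5′ to 3′ on the strand that carries it.
Cxcl1: cctgtgctccGGGAATTTCCctggcctgga
Cxcl2: cctaagctcaGGGGATTTCCctgatccctg
Tnfaip3: ttcgccacagGGGGATTTCCgagggacttt
Il1rn: ggaaatatgaGGGTTTTTCCgcttttcaca
Rel: cggaacggggGGGGATTTCCcgctgcctac
In GRCr8 the Cxcl1 window is chr14:17479386-17479415 on the minus strand and the Cxcl2 window chr14:17467310-17467339 on the minus strand. That of Tnfaip3 is chr1:15544015-15544044 on the plus strand, opposite to the gene, that of Il1rn chr3:27520183-27520212 on the plus strand, and that of Rel chr14:101922000-101922029 on the plus strand, opposite to the gene. The end of the motif nearer to the gene lay 75, 65, 46, 120 and 72 bases before the start of Cxcl1, Cxcl2, Tnfaip3, Il1rn and Rel. Cxcl1, Cxcl2 and Tnfaip3 each had another match within the searched bases.

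Genes of the immediate early response, which switch on within minutes of a stimulus and also during tissue dissociation, were lower in HuMSC50 libraries. Beside 1.03% of all tested genes, 6 of 35 tested members of that list fell and none rose, with a median of -0.68. Its summed level was 19430, 14160 and 13540 CPM in injured and 11390, 9647 and 9771 CPM in HuMSC50 libraries, and its part in the fall of the inflammatory genes was not tested. Atf3, a stress-induced partner of AP-1, held 447, 291 and 299 CPM in injured and 141, 96.9 and 129 CPM in HuMSC50 libraries and fell by 1.498 ± 0.25 (edgeR adjusted p = 0.00861). The AP-1 subunit genes Fosb and Fosl2 fell by 1.56 ± 0.29 and 1.26 ± 0.19, the latter in every alternative setting. Fos and Jun themselves were not called, at -0.51 and -0.59. The nuclear receptor gene Nr4a3 fell by 2.22 ± 0.36, from 6.41, 4.69 and 8.55 to 1.44, 1.08 and 1.67 CPM, while its relatives Nr4a1 and Nr4a2 were at -1.24 and -1.34 and were not called. The cyclic AMP-responsive repressor gene Crem fell by 0.70 ± 0.15 and the phosphatase gene Dusp2 by 1.48 ± 0.28. The 4 heat shock genes of the same list were not called, with Hsp90aa1 at 0.03 and Hspa1b at -0.02. The count was 1 or 2 when replicate 2 or 3 of HuMSC50 was left out and 3 when injured replicate 1 was, and DESeq2 called 12.

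The AP-1 motif TGANTCA occurred, on either strand of the same 250 bases, in 15 of the 110 genes that fell (13.64%), in 1 of the 17 that rose, in 4.77% of tested genes and in 6.99% of all promoters. Tnfaip3 was the 1 gene among those that fell with both motifs. The 4 windows below, in GRCr8, belong to lysosomal and scavenger genes that fell, with the motif in capitals and 10 bases on either side.
Gpnmb: caggagcaagTGAGTCAtgagcacgag
Cd68: ctgaggtgccTGAGTCAggtttggggt
Cd63: ctagcccgggTGACTCAggccgcagct
Olr1: ctgtgacggtTGAGTCAtcctctgcta
The Gpnmb window is chr4:79341031-79341057 on the plus strand, that of Cd68 chr10:54882505-54882531 on the minus strand, that of Cd63 chr7:1921991-1922017 on the plus strand and that of Olr1 chr4:164634561-164634587 on the minus strand.

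Some genes of the phagocytic state of early postnatal microglia fell. Of 32 tested genes of the list of disease-associated and axon-tract microglia 11 fell and none rose, with a median of -0.52. The 11 included Csf1 and Atf3, described above, so this count is not separate from those results. Among the 36 lists, 38 genes belonged to more than 1. Over all tested genes 1.03% fell. Gpnmb, a transmembrane glycoprotein of lysosomes, held 321, 664 and 527 CPM in injured and 154, 232 and 161 CPM in HuMSC50 libraries and fell by 1.47 ± 0.23 (edgeR adjusted p = 0.00688). Here injured replicate 1 was the lowest of the injured libraries, unlike for the chemokines. Cd68, a lysosomal membrane protein used as a marker of phagocytic microglia, fell by 0.91 ± 0.15, from 166, 209.6 and 237 to 85.4, 124 and 117 CPM, and was called in every alternative setting. The tetraspanin gene Cd63, also lysosomal, fell by 0.59 ± 0.12. Lgals3, the galectin of phagocytes, fell by 1.10 ± 0.23, from 42.9, 41.3 and 46.0 to 13.5, 24.9 and 21.98 CPM. Igf1, a growth factor for neurons and oligodendrocytes, fell by 0.75 ± 0.17, from 70.3, 102 and 101 to 45.7, 63.6 and 53.3 CPM. The lipid droplet coat gene Plin2 fell by 0.53 ± 0.11. Plin2 also belonged to the list of LXR targets and lipid handling, where 3 of 24 tested genes fell, with the cholesterol esterifying enzyme gene Soat1 (-0.57) and the fatty acid carrier gene Fabp3 (-1.02), and the median was -0.12. Of 29 tested genes of complement and phagocytosis only Cd68 fell, the median was -0.16, and the sums overlapped, at 20650, 25570 and 21770 CPM in injured and 19350, 24160 and 21000 CPM in HuMSC50 libraries. Spp1, which encodes osteopontin and is a hallmark of that state, was at -1.95 ± 0.72 with an adjusted p of 0.243, and its injured libraries held 222, 368 and 715 CPM against 167, 93.5 and 76.3 CPM. Apoe, Trem2 and Tyrobp, the core of the disease-associated programme, were at -0.33, -0.12 and -0.16 and were not called. Leaving out replicate 1, 2 or 3 of HuMSC50 left 5, 3 or 2 members that fell, and leaving out replicate 1 or 3 of the injured group left 5 or 6.

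Further lysosomal and surface genes that fell included the protease gene Tpp1 (fall of 0.48 ± 0.10), the proton pump subunit genes Tcirg1 (0.54 ± 0.10) and Atp6v1b2 (0.36 ± 0.08), and the sialic acid exporter gene Slc17a5 (0.54 ± 0.09). Cd83, a surface glycoprotein of activated antigen-presenting cells and the most abundant gene among those that fell, held 2053, 1269 and 1049 CPM in injured and 775, 654 and 591 CPM in HuMSC50 libraries and fell by 1.11 ± 0.25 (edgeR adjusted p = 0.0406). The Na,K-ATPase subunit gene Atp1b1 fell by 0.86 ± 0.10, from 548, 667 and 544 to 347, 308 and 310.4 CPM, and the membrane scaffold gene Stom by 0.72 ± 0.08, from 92.0, 102 and 103 to 58.4, 60.0 and 61.9 CPM. Atp1b1 and Stom had changes under 1 log2 unit but had adjusted p of 0.000832 and 0.000344, with replicates close together. The flagellin receptor gene Tlr5 fell by 1.24 ± 0.18 and the scavenger receptor gene Olr1 by 1.502 ± 0.20. Cd83, Tpp1 and Atp1b1 were among the 5 most abundant genes that fell, and Tlr5 and Olr1 were among the genes of the route difference below. The other genes of this paragraph were chosen after their values were seen.

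In metabolism, Pdk4 led the falls. Its product holds back pyruvate dehydrogenase and so favours fat oxidation. It held 113, 76.9 and 58.7 CPM in injured and 19.5, 12.0 and 13.5 CPM in HuMSC50 libraries, with the groups far apart. The fall was 2.46 ± 0.26 (edgeR adjusted p = 0.000344) and was called in every alternative setting. Pdk4 belonged to the glucocorticoid response list, in which 3 of 21 tested genes fell, against 1.03% of all tested genes. The others were Cdkn1a (-1.12) and the clock gene Per1 (-1.12), while Tsc22d3 and Fkbp5 were at -0.49 and -0.12 and were not called. The calls of Cdkn1a and Per1 were both lost when injured replicate 1 or replicate 2 or 3 of HuMSC50 was left out. The lactate exporter gene Slc16a3 fell by 1.30 ± 0.18 and the hypoxia-inducible peptide gene Adm by 1.41 ± 0.27, whereas Hk1, the first enzyme of glycolysis in brain, rose by 0.39 ± 0.09. The stress cytokine gene Gdf15 fell by 1.88 ± 0.28, from 44.7, 36.9 and 39.98 to 12.4, 11.9 and 8.85 CPM. Cholesterol synthesis had 1 of 25 genes called, the squalene synthase gene Fdft1, which rose by 0.42 ± 0.09 from 66.9, 79.9 and 69.8 to 97.9, 97.6 and 95.04 CPM. No gene was called among 40 genes of oxidative phosphorylation, 46 ribosomal protein genes, 44 cell cycle genes, 31 interferon response genes and 21 antigen presentation genes tested, whose medians lay between -0.16 (cell cycle) and 0.01 (oxidative phosphorylation). At an unadjusted p under 0.05 the whole comparison had 1699 genes.

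Genes counted as immunoregulatory or repair markers went the same way as the inflammatory ones. Of 21 tested, 4 fell and none rose, namely Il1rn, Igf1, Lgals3 and the transcription factor gene Klf4 (-1.24), and the median was -0.75. Over all tested genes 1.03% fell. The mannose receptor gene Mrc1 and the haemoglobin scavenger receptor gene Cd163 were at -0.41 ± 0.15 and -0.43 ± 0.19 and were not called, nor was the cytokine signalling inhibitor gene Socs3 at -1.01 ± 0.26. Arg1 did not pass the filter on low counts. The count of this list was 0 without HuMSC50 replicate 2, 1 without HuMSC50 replicate 1 or 3 and 2 without injured replicate 1.

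**Figure D3:**
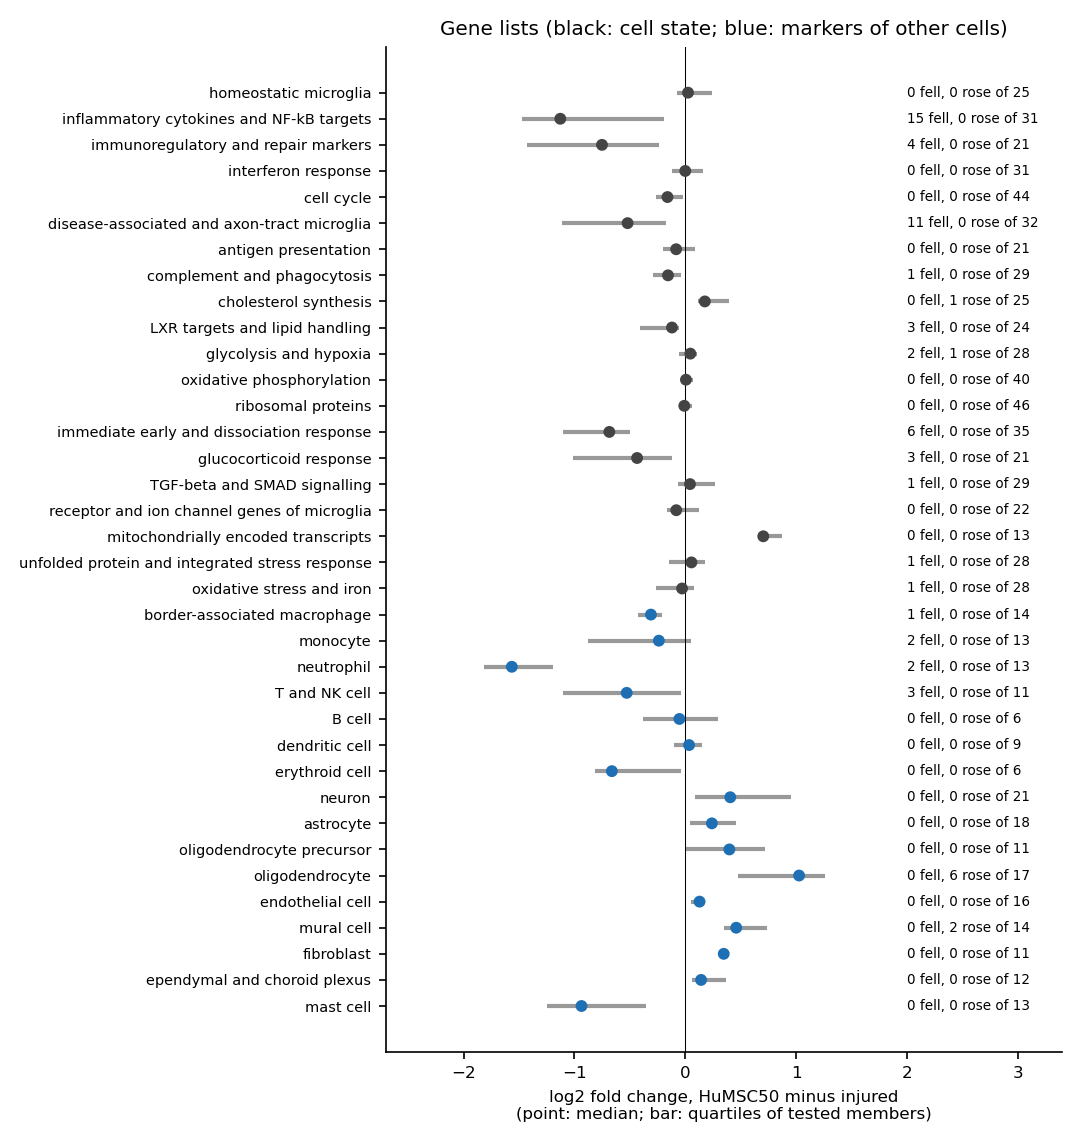
Log2 fold changes of HuMSC50 minus injured for 36 gene lists, with the median of the tested members as a point and their quartiles as a bar, and the number that fell and rose printed at the right. The list of inflammatory cytokines and NF-κB targets (15 fell of 31) and the oligodendrocyte list (6 rose of 17) lie farthest out among the lists with more than 3 called genes.

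Genes of myelin were the largest group of rises among the 36 lists. Of 17 tested oligodendrocyte markers 6 rose and none fell, with a median of 1.03, against 0.187% of all genes that rose. Mobp, a protein of the compact myelin sheath, held 7.41, 7.69 and 9.30 CPM in injured and 14.8, 30.3 and 32.9 CPM in HuMSC50 libraries. HuMSC50 replicate 1 was the lowest of its group and still above all injured libraries. Mobp rose by 1.67 ± 0.23 (edgeR adjusted p = 0.00353), in every alternative setting. Mbp, the myelin basic protein gene, rose by 1.56 ± 0.26, from 59.9, 93.1 and 99.0 to 146, 303 and 295 CPM. The myelin glycoprotein genes Mog and Mag rose by 1.31 ± 0.26 and 1.26 ± 0.21. The tight junction gene of the myelin sheath, Cldn11, rose by 1.03 ± 0.16, from 11.8, 14.3 and 16.5 to 22.8, 28.8 and 35.3 CPM. Markers of newly formed oligodendrocytes were not called, with Enpp6 at 0.00 and Bcas1 at 1.26, nor was any of 11 tested precursor markers, whose median was 0.40.

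The oligodendrocyte list summed to 597, 750.5 and 712 CPM in injured, 914, 1269 and 1227 CPM in HuMSC50 and 1242, 1167 and 1297 CPM in control libraries. In these bulk libraries of a CD11b/c-enriched fraction, a different number of cells of a type and a different amount of RNA per cell cannot be told apart. Leaving out replicate 2 or 3 of HuMSC50 left 2 or 3 markers that rose, and leaving out its replicate 1 gave 7. Replicate 1 was the HuMSC50 library with the lowest mitochondrial share. Vascular wall markers were higher as well. Of 14 tested mural cell markers, Tagln (0.72 ± 0.15) and Myh11 (1.06 ± 0.24), both of the smooth muscle contractile apparatus, rose, and the median was 0.46. Over all tested genes 0.187% rose. The mural sum was 543, 457 and 687 CPM in injured and 829, 739 and 899 CPM in HuMSC50 libraries. Neither mural call held without HuMSC50 replicate 1, 2 or 3 or without injured replicate 1 or 2. No tested marker of neurons (21), astrocytes (18), endothelial cells (16) or fibroblasts (11) was called, and the medians were 0.41, 0.24, 0.13 and 0.35.

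**Figure D4:**
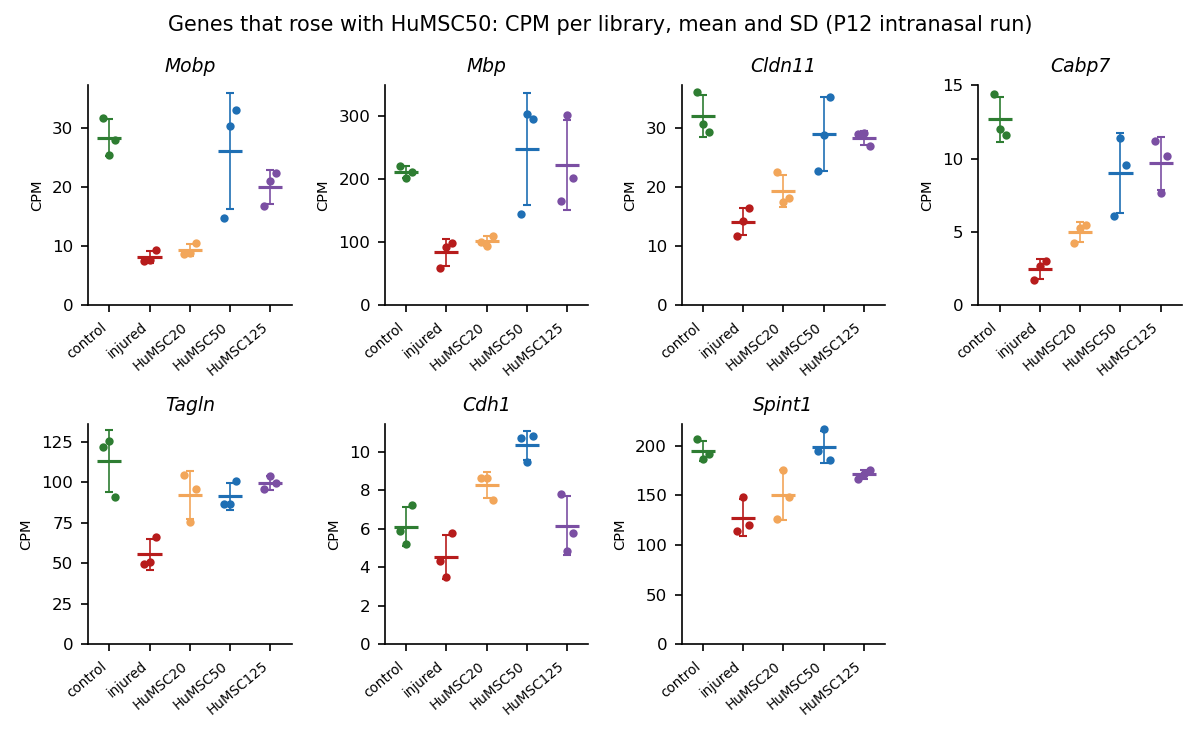
CPM of 7 genes that rose, with a point for each of the 15 libraries and the mean ± SD of the 3 libraries of each group. In each panel the 3 HuMSC50 libraries lie above the 3 injured ones, and for Mobp, Mbp and Cabp7 HuMSC50 replicate 1 is the lowest of its group.

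Other large rises were in genes outside the lists. Cabp7, a neuronal calcium sensor gene, held 1.70, 2.71 and 3.02 CPM in injured and 6.08, 11.4 and 9.58 CPM in HuMSC50 libraries and rose by 1.85 ± 0.26 (edgeR adjusted p = 0.00353), in every alternative setting. The epithelial cadherin gene Cdh1 rose by 1.18 ± 0.21, from 4.32, 3.52 and 5.78 to 10.7, 9.47 and 10.8 CPM. Its HuMSC50 libraries stood above the control libraries, which were at 5.88, 5.23 and 7.22 CPM. The protease inhibitor gene Spint1 rose by 0.64 ± 0.12, from 114, 148 and 120.2 to 195, 217 and 185 CPM, the ephrin receptor gene Ephb1 by 1.04 ± 0.18 and the intermediate filament gene Synm by 1.05 ± 0.23. The adaptor protein gene Ywhah, the most abundant of the genes that rose, changed by 0.47 ± 0.10, from 710.4, 798 and 653 to 1004, 1030.0 and 949 CPM.

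Some genes on the marker lists of T cells, neutrophils and monocytes fell. Cd8a, a co-receptor of cytotoxic T cells and the largest fall among genes whose log2 CPM averaged 1 or more and whose symbol is established, held 10.4, 20.4 and 27.4 CPM in injured and 3.04, 5.31 and 1.60 CPM in HuMSC50 libraries (fall of 2.56 ± 0.43, edgeR adjusted p = 0.00869). Its partner gene Cd8b fell by 2.02 ± 0.36, from 7.10, 11.7 and 11.1 to 2.16, 3.62 and 1.60 CPM. Both calls were lost without HuMSC50 replicate 3, and that of Cd8b also without HuMSC50 replicate 1. The co-receptor gene Cd4, which rat macrophages express as well, fell by 0.72 ± 0.10, from 549.8, 521 and 524 to 324, 319 and 328 CPM. These were the 3 of 11 tested T and NK cell markers that fell, against 1.03% of all tested genes. The T cell receptor complex genes Cd3e, Cd3d and Cd3g had at most 5 counts in any of the 6 libraries and were not tested. The granzyme gene Gzmb had 0 counts in all 6. Such a count does not by itself show absence, because the glycolysis gene Tpi1 and the ribosomal protein gene Rpl38 also had 0 in all 6. Lck and Cd5 were at -0.20 and 0.05, not called. Which cells the Cd8a and Cd8b transcripts came from was not tested. The list summed to 607, 579.9 and 593 CPM in injured and 352, 362 and 360.3 CPM in HuMSC50 libraries, a sum made up mostly of Cd4.

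Of 13 tested neutrophil markers S100a8 and S100a9 fell, the calprotectin genes of neutrophils and monocytes, while 1.03% of all tested genes fell. S100a9 held 129, 82.9 and 59.5 CPM in injured and 18.8, 24.0 and 23.0 CPM in HuMSC50 libraries and fell by 2.04 ± 0.44 (edgeR adjusted p = 0.0363), and S100a8 fell by 1.99 ± 0.45. The list's median was -1.56, and its sum was 478, 419.9 and 338 CPM in injured and 265, 305 and 297 CPM in HuMSC50 libraries. The granule gene Ltf had 0 counts in all 6, which, as for Gzmb, does not by itself show absence. Neither call held without injured replicate 1 or 2 or without any of the 3 HuMSC50 replicates. Of 13 tested monocyte markers 2 fell, among them Clec4e (-1.56 ± 0.34), while the list's sum was 1285, 1493 and 1794 CPM in injured and 1847, 1891 and 2132 CPM in HuMSC50 libraries, with every HuMSC50 library above every injured one. Of 14 markers of border macrophages Pf4 fell (-0.87 ± 0.18). Mast cell markers had a median of -0.94 with none of 13 called, and no tested marker of B cells (6) or dendritic cells (9) was called, with medians of -0.05 and 0.03. The part of these cells in the fall of the inflammatory genes was not tested.

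Among the remaining large falls, Sdc4, a heparan sulphate proteoglycan, held 248, 86.1 and 86.9 CPM in injured and 36.4, 19.4 and 25.7 CPM in HuMSC50 libraries and fell by 2.37 ± 0.40 (edgeR adjusted p = 0.00861). Injured replicate 1 was again far above the other 2. The atypical chemerin receptor gene Ccrl2 fell by 2.11 ± 0.40, from 158, 75.3 and 61.1 to 29.1, 20.1 and 18.9 CPM, with the same library highest. The tetraspanin gene Tspan10 fell by 2.28 ± 0.33, from 3.94, 6.01 and 8.68 to 1.36, 1.54 and 0.943 CPM, with injured replicate 1 lowest of its group, and was called in every alternative setting. The exchange factor gene Rasgef1b fell by 2.11 ± 0.38.

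The doses were compared with each other directly. Against HuMSC20, edgeR called 29 genes (0.209% of 13868), of which 27 were lower in HuMSC50 (0.195%) and 2 higher (0.0144%). These comparisons share the HuMSC50 libraries with the one above, and their values are therefore given side by side only. Csf1 had the smallest adjusted p (0.000763): HuMSC20 libraries held 60.5, 60.6 and 62.2 CPM, and the difference of HuMSC50 from them was -1.12 ± 0.11 beside -1.65 from injured libraries. Il1b held 193, 271 and 287 CPM with HuMSC20, -1.82 ± 0.33 away (edgeR adjusted p = 0.0363). Pdk4 held 46.1, 51.6 and 74.1 CPM and differed by -1.93 ± 0.25, and Ccl4 held 485, 647 and 528 CPM and differed by -1.76 ± 0.32. Nr4a3, Sdc4, Lif, Gdf15 and Fosb differed by -2.199, -2.05, -1.78, -1.63 and -1.56. Of 35 tested genes of the immediate early and dissociation list 6 were lower than with HuMSC20, with a median of -0.99. The inflammatory list had 6 of 31 lower and a median of -0.93. HuMSC20 libraries held 15640, 21630 and 18400 CPM of the immediate early list, against 11390, 9647 and 9771 CPM with HuMSC50. The part of dissociation in this difference was not tested. The 2 genes higher in HuMSC50 were the myelin genes Mobp (1.48 ± 0.23, adjusted p = 0.0179) and Mag (1.14 ± 0.21, adjusted p = 0.0363), with HuMSC20 libraries at 8.63, 8.82 and 10.6 and 15.7, 11.2 and 14.9 CPM. Adamts13, named after its values were seen, was called at -7.78 ± 1.21 with 47.1, 7.13 and 1.89 CPM in the HuMSC20 libraries against 0, 0.154 and 0.0725 CPM, and its HuMSC20 libraries differed widely among themselves. The count was 1 without HuMSC50 replicate 2, 2 without HuMSC50 replicate 3, 3 without HuMSC20 replicate 2 or 3 and 16 without HuMSC20 replicate 1, and DESeq2 called 124.

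Not every gene that differed from injured libraries differed between these doses. Atp1b1 held 358, 369 and 350.1 CPM with HuMSC20, a difference of -0.16 ± 0.10 with a 95% interval of -0.37 to 0.05. Tlr5 held 4.46, 6.28 and 4.76 CPM and differed by -0.16 (-0.55 to 0.22), and Igf1 held 51.6, 65.1 and 58.9 CPM and differed by -0.11 (-0.46 to 0.24). Tagln differed by -0.01 (-0.32 to 0.30). For Gpnmb, HuMSC20 libraries held 343, 340.4 and 297 CPM, and the difference of -0.84 ± 0.23 was not called (adjusted p = 0.222).

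Against HuMSC125, edgeR called none of 13868 genes (0%), while 716 had an unadjusted p below 0.05 and DESeq2 called 2. HuMSC125 libraries held 27.9, 34.3 and 24.2 CPM of Csf1, a difference of -0.03 with a 95% interval of -0.28 to 0.21. For Il1b they held 43.6, 111 and 57.0 CPM, with a difference of 0.00 (-0.68 to 0.69), and for Pdk4 15.3, 22.6 and 22.6 CPM, with -0.44 (-0.98 to 0.11). The interval excluded 0 for some genes, among them Tlr5 (-0.92 to -0.17), Ccl7 (-0.84 to -0.07) and Nr4a3 (-1.67 to -0.10). It did so for Ccl2, where HuMSC125 libraries held 65.03, 119.8 and 70.2 CPM and HuMSC50 libraries were lower by 0.72 (-1.15 to -0.28), and for Cdh1, where they held 7.82, 4.86 and 5.80 CPM and HuMSC50 libraries were higher by 0.75 (0.31 to 1.20). Genes named for such an interval were chosen after their values were seen, and none passed the adjustment. Among 13868 genes some 95% intervals exclude 0 without any difference. HuMSC125 replicate 2 held 839 CPM of summed neuron markers, while the other 14 libraries of the run held from 70.6 to 138 CPM, and the comparison with the injured group called 209 genes without it.

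Against uninjured control libraries, edgeR called none of 13868 genes (0%), while 1622 had an unadjusted p below 0.05 and DESeq2 called 70. For some genes the interval of the difference between HuMSC50 and control reached or crossed 0, and for others it lay wholly below 0. A wide interval, such as that of Cd8a, does not show equal levels. Cd68 differed from control by -0.09 (95% interval -0.40 to 0.23), Cd8a by -0.13 (-1.11 to 0.85), Fosl2 by 0.04 (-0.38 to 0.46), Mobp by -0.12 (-0.59 to 0.35) and Tagln by -0.31 (-0.61 to 0.00). Intervals wholly below 0 included those of Ccl2 at -1.19 (-1.63 to -0.76), Lif at -1.15 (-1.83 to -0.47), Pdk4 at -1.14 (-1.68 to -0.60) and Csf1 at -0.43 (-0.67 to -0.18), with adjusted p of 0.107, 0.277, 0.222 and 0.277. The interval of the myelin gene Mog also lay below 0, at -0.66 (-1.18 to -0.14), with control libraries at 8.87, 8.37 and 9.80 CPM. These genes were chosen after their values were seen, and intervals are not adjusted for the number of genes. This comparison shares the HuMSC50 libraries with the ones above.

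The same dose given into a vein at the same age was measured in another run with its own injured group. There edgeR called 5 of 13874 genes (0.036%), 4 lower (0.0288%) and 1 higher (0.00721%), with 1617 at an unadjusted p under 0.05. They were P2rx4, Mlc1, AABR07044421.1 and AC134224.3, which were lower, and Ctdspl2, which was higher. None of the 169 genes called with the nasal route was among them. Of the 143 that fell, 115 were below 0 by the intravenous route, where 53.0% of all genes were, and their median was -0.21. Of the 26 that rose, 25 were tested there, 10 were below 0 and the median was 0.04. The difference between routes was tested directly in the 30 libraries of both P12 runs, and edgeR called 21 of 14362 genes (0.146%). The log2 fold change was lower by the nasal route for 14 (0.0975%) and higher for 7 (0.0487%). At an unadjusted p under 0.05 there were 1454. Each route was measured in 1 run with its own injured group, so run and route cannot be told apart, neither in levels nor in this difference of effects. The injured groups of the 2 runs differed in level themselves for some genes, such as Lif below.

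Il1rn had the smallest p of the route difference. By the intravenous route it held 8.95, 11.3 and 9.57 CPM in injured and 16.5, 15.1 and 17.0 CPM in HuMSC50 libraries, 0.71 ± 0.21, against -1.43 ± 0.24 by the nasal route. The difference of effects was -2.15 ± 0.33 (edgeR adjusted p = 0.00754), and the 2 runs moved in opposite directions in all libraries. Lif held 2.31, 3.66 and 2.95 CPM in intravenous injured libraries and 4.07, 4.31 and 3.60 CPM after intravenous cells, a difference of effects of -2.64 ± 0.42 (adjusted p = 0.00754). Ccl2 held 199.96, 190.4 and 189 and 282, 199 and 237 CPM by the intravenous route and differed between routes by -1.76 ± 0.34. Nr4a3 and Sdc4 differed by -3.13 ± 0.53 and -2.71 ± 0.55. Pdk4 was lower with cells by both routes (-0.60 ± 0.22 intravenously, not called), and the effects still differed by -1.88 ± 0.36 (adjusted p = 0.0220).

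Genes with a higher log2 fold change by the nasal route included the astrocyte genes Gfap and Mlc1. The filament gene Gfap held 70.7, 37.7 and 65.1 CPM in injured and 119, 80.7 and 118 CPM in HuMSC50 libraries by the nasal route, and 48.4, 62.8 and 54.7 and 30.5, 21.5 and 17.8 CPM by the intravenous one. Neither effect was called within its run, at 0.87 ± 0.22 and -1.25 ± 0.28, and their difference was 2.10 ± 0.39 (edgeR adjusted p = 0.0185). S100b, a calcium-binding protein of astrocytes and oligodendrocytes, differed by 1.41 ± 0.24. The astrocyte list had medians of 0.24 by the nasal and -0.31 by the intravenous route. Its sums in the nasal run overlapped, at 5092, 4644 and 4426 CPM in injured and 4284, 4500 and 4575 CPM in HuMSC50 libraries. For the oligodendrocyte list the medians were 1.03 and 0.09, and for the list of inflammatory cytokines and NF-κB targets -1.13 and -0.07. The count of the route difference was 5 without intravenous HuMSC50 replicate 3, 7 without nasal HuMSC50 replicate 3, 12 without nasal HuMSC50 replicate 2 or intravenous injured replicate 2, 36 without nasal HuMSC50 replicate 1 and 41 without nasal injured replicate 3.

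**Figure D5:**
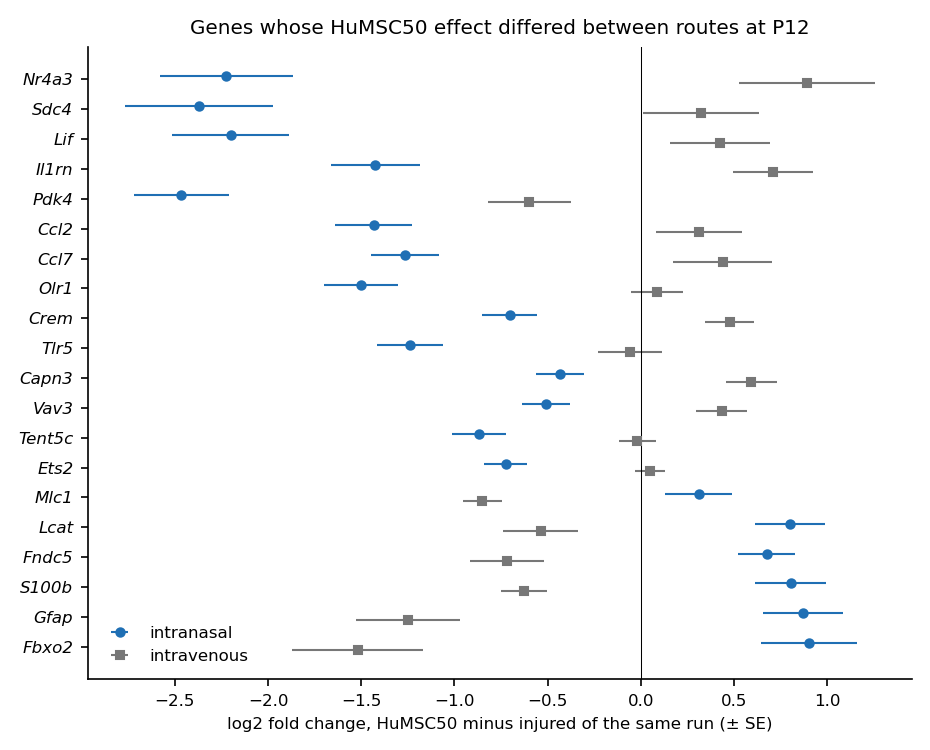
Log2 fold change ± SE of HuMSC50 minus injured within each P12 run, for 20 of the 21 genes whose effect differed between the nasal (blue circles) and the intravenous route (grey squares), 3 libraries per group. Nasal values lie to the left for 14 genes and to the right for 6, and for 17 of the 20, all but Pdk4, Tlr5 and Tent5c, the 2 routes lie on opposite sides of 0.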

How the data were processed

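RNA was sequenced from CD11b/c-selected brain cells as stranded poly(A) libraries, per the labels' protocols. The deposited table holds raw counts per gene for 90 libraries. Per the submitters' processing notes, the tools named (without their roles) are HTSeq 0.5.3, STAR 2.7.2d, DESeq2 1.8.1 and SAMtools, while the genome build, the annotation and the handling of strand are not given in the sources used here. Reads of overlapping or near-identical genes may therefore be split or lost.

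The 15 libraries of the nasal P12 run shared 1 fit in edgeR 4.0.16 under R 4.3.3, with group means, TMM scaling, filterByExpr (minimum count 10, minimum total 15) and the quasi-likelihood F test. Genes with a Benjamini-Hochberg adjusted p under 0.05 were called. SE is the log2 fold change divided by the square root of F, and CPM values use TMM-scaled library sizes. The route difference was fitted over the 30 libraries of both P12 runs. Alternatives were other size factors, no filter, a CPM of 1 in 3 libraries, DESeq2 1.42.0, limma 3.58.1 (voom), a replicate block, only the groups compared, and single libraries left out. The fit was tested on simulated counts with known changes. It recovered 71% of 100 genes changed 2-fold and 98% of 100 changed 4-fold. Of its calls 7.14% were false, above the threshold of 0.05.

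Named genes were the 10 largest called rises and falls whose log2 CPM averaged 1 or more with an established symbol and groups that did not overlap, up to 4 members of each list by p, 14 set markers, and the 5 most abundant called genes in each direction. Any other gene was picked once values were known. The libraries compared, the members and the gene lists were chosen with earlier results of these data known. Promoter sequences are RefSeq's (GRCr8), matched by symbol. Some genes are not reported here.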

Additional observations from a re-analysis of the deposited data

Results flagged for a closer look

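The effect of HuMSC50 differed between the nasal and the intravenous route at P12 for 21 genes by edgeR's test of the difference itself (nasal log2 fold change minus intravenous). Cytokine and chemokine genes with a lower log2 fold change by the nasal route were Il1rn (-2.15), Lif (-2.64), Ccl2 (-1.76) and Ccl7 (-1.72). Transcription factor genes were Nr4a3 (-3.13), Crem (-1.20) and Ets2 (-0.79). Surface and signalling genes were Sdc4 (-2.71), Olr1 (-1.61), Tlr5 (-1.19) and Vav3 (-0.95), and the remaining genes in that direction were Pdk4 (-1.88), the protease gene Capn3 (-1.04) and the poly(A) polymerase gene Tent5c (-0.87). Genes with a higher log2 fold change by the nasal route included Fbxo2 (2.40), Gfap (2.10), S100b (1.41) and Fndc5 (1.38). The cholesterol acyltransferase gene Lcat (1.33) and the astrocyte membrane gene Mlc1 (1.14) were also among them. Each route was measured in 1 run, and the 2 cannot be told apart here. The cause of these differences was not tested.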

How the results depend on the processing

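The comparison with injured libraries called 169 genes, and 387 with DESeq2. Of the 169, 93 were called again with only the groups compared, 138 with the replicate block and 153 with limma-voom. Leaving out 1 library at a time gave 29 to 209. Against HuMSC20 the 29 genes became 82 with no filter on low counts, 124 with DESeq2, 19 with limma-voom, 94 with only the groups compared and 54 without HuMSC125 replicate 2, and 1 to 23 when 1 library of the groups compared was left out. Against HuMSC125 the count of 0 became 2 with DESeq2 and stayed 0 for each library left out. Against control the count of 0 became 8 with no filter, 70 with DESeq2, 5 with only the groups compared and 1 without HuMSC125 replicate 2, and was 0 to 2 when 1 library was left out. The 21 genes of the route difference became 55 with no filter, 101 with DESeq2 and 48 with only the groups compared, and 5 to 41 when 1 library was left out. With an arm of 2 libraries there are fewer samples, and the cause of the other changes was not tested. P2ry12 changed sign, to 0.12 without injured replicate 2 and 0.0042 without HuMSC50 replicate 1, within a range of -0.22 to 0.12 over libraries left out. Cx3cr1 did so without injured replicate 2, within -0.20 to 0.16. Neither was called.

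Replicate numbers were shared by the groups. The deviations of same-numbered libraries of the compared groups correlated at 0.138, 0.0722 and 0.111, above differently numbered ones, at -0.119 to 0.0105. Over all groups 9 of 30 same-numbered pairs exceeded 0.1. Differently numbered pairs of other groups exceeded it too, such as injured replicate 3 with HuMSC20 replicate 1 (0.327) and HuMSC20 replicate 1 with control replicate 2 (0.214). A cut at 0.1 can therefore not decide the pairing. Not all pairs of the compared groups exceeded 0.1, so the numbers were not taken to pair the samples. These values do not settle whether they do. With the replicate block the counts were 156 against injured, 22 against HuMSC20, 0 against HuMSC125, 1 against control and 23 for the route difference.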
